A study of Homo sapiens with 2 samples.

Results

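The imprinted genes described here were 40 of the 60554 genes in the count files. They are the symbols of a list that were found both in GENCODE version 44 and in the files. The rule itself uses no measured value, although the list was drawn up with earlier results of these data known. Of the 40 genes, 31 were protein-coding and 9 were long non-coding RNA (lncRNA) genes, and they fell into 7 groups by position: 11p15 with 6 genes, 14q32 with 6, 15q11 with 8, 7q21 and 7q32 with 5, 19q13 with 2, 20q with 5 and 8 genes elsewhere. The RNA of the chromatin fraction, in which nascent transcripts are enriched, was sequenced from SH-SY5Y cells, a human neuroblastoma line that the labels give as without genetic modification. There was 1 condition with 2 replicates and no treatment was named, so that no change could be tested. The sources used here do not say if the replicates were separate cultures, and the spread between them may be technical.

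An imprinted gene is transcribed mainly or wholly from the copy of 1 parent, and the choice is set by methylation that the germ line placed at a control region of its domain. Such domains often pair genes of the paternal copy with genes of the maternal copy, and several hold a long non-coding RNA that runs across its neighbours and keeps them silent on the same chromosome. Many imprinted genes act in fetal growth, in the placenta and in the brain. The parental copies were not separated in these data, so that every value below is the sum over both copies. In bulk RNA, fewer cells that express a gene and less RNA per cell cannot be told apart.

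Levels are counts of read pairs in exons on the strand of the gene, scaled to 1000000 such counts in genes (CPM). The replicates held 4155210 and 3425309 of them, and only 18.5% and 17.5% of the uniquely mapped pairs fell in genes, since 79.4% and 80.7% touched no exon, introns included. A gene was called detected at a mean count of at least 10, which is 2.64 CPM. A gene without a count in either library is bounded at 3 counts over both, or 0.396 CPM, and bounds and exact (Clopper-Pearson) 95% intervals cover counting error only. All 6 markers of adrenergic neuroblasts were detected (7.47 to 231 CPM per kb of exon, summed level 2613 and 2196 CPM). They were a chosen set of transcription factor genes, and TH, another gene used to mark such cells, had 0 counts in both replicates. None of 4 Schwann cell, 4 leukocyte and 3 endothelial markers was detected, with summed levels from 0 to 0.481 CPM, and 7 of these 11 were at 0. All 3 fibroblast markers were detected, at a summed level of 25.3 and 34.4 CPM and at 0.701 to 2.61 CPM per kb, and their part in the levels of imprinted genes was not tested.

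Of the 40 imprinted genes, 24 (60%) were detected, 8 had low counts and 8 had no count on their own strand. Among all genes in the files 24.7% were detected. Among the protein-coding imprinted genes 18 of 31 (58.1%) were detected, which is near the 59.4% of all protein-coding genes and so is no result about imprinted genes. Among the lncRNA genes 6 of 9 (66.7%) were detected, against 12.2% of all lncRNA genes, a comparison between listed, well-studied genes and all annotated ones. Together the imprinted genes made up 0.299% and 0.312% of the counts in genes, or 2990 and 3119 CPM (3054 ± 91.1, SD, n = 2). KCNQ1OT1 alone held 10118 of their 23107 counts (43.8%), and without it the sum was 1728 and 1696 CPM. Every group except 20q and 19q13 held at least 1 gene without a count, and every group except 14q32 held at least 1 gene above 20 CPM.

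**Figure D1:**
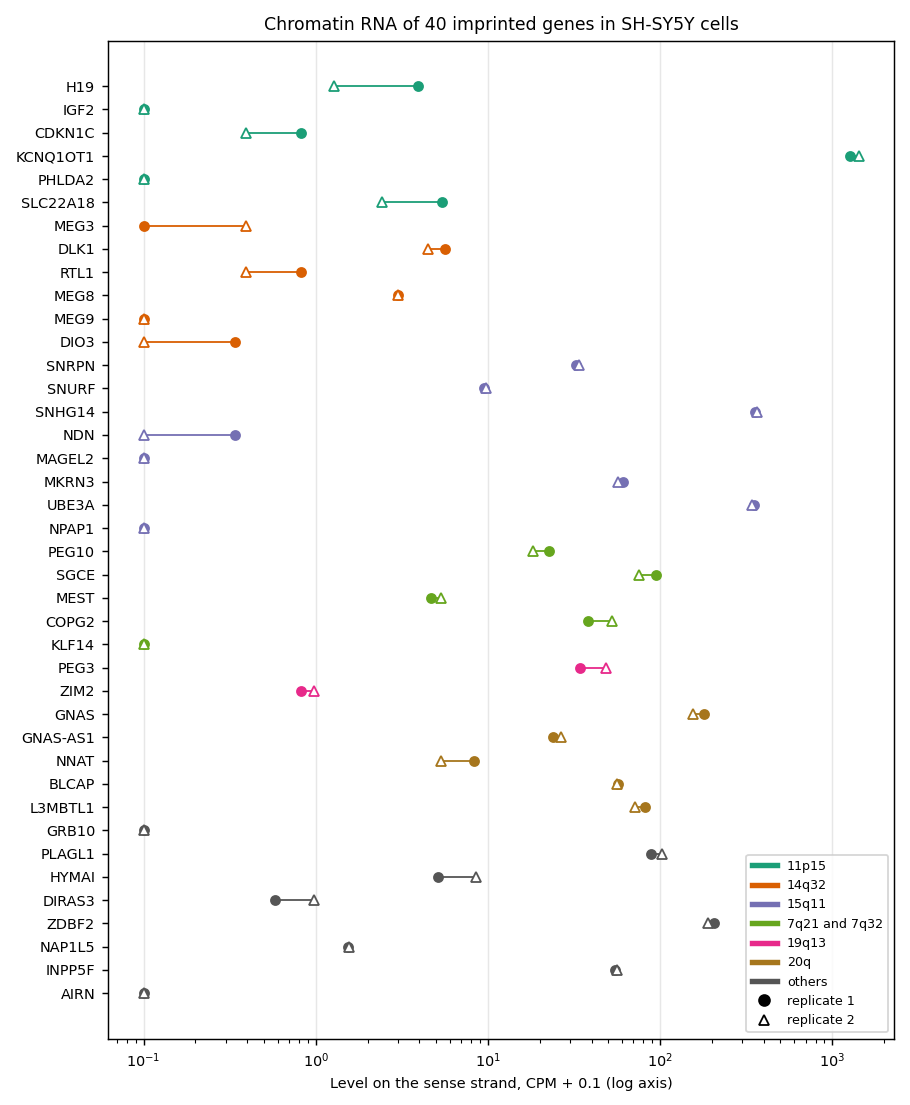
Level of each of the 40 imprinted genes on its own strand, in CPM + 0.1 on a log axis, with replicate 1 as filled circles, replicate 2 as open triangles and a line joining them, coloured by domain. KCNQ1OT1 stands highest at 1262 and 1423 CPM, and genes at the left edge had no count in that replicate.

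The imprint is kept after fertilization by the zinc finger protein ZFP57, which binds methylated TGCCGC at control regions. That hexamer was searched on both strands (TGCCGC and GCGGCA) in RefSeq promoter windows of GRCh38.p14, which run from 250 bases before a transcription start to 50 bases after it. The table held 27 of the 40 genes with 54 windows. PEG10, IGF2, SLC22A18, MEG8, GNAS-AS1, CDKN1C, PEG3, KCNQ1OT1, PHLDA2, SGCE, DLK1, ZIM2 and NNAT were not in it. The hexamer was found in 21 of the 54 windows (38.9%), against 16.7% of all 34943 windows of the table. The windows of imprinted genes also held more CG pairs, with a median of 18 against 14, and among windows with at least 10 CG pairs the shares were 52.6% of 38 and 26.8% of 19665. At least 2 copies were found in 12.96% of the windows of imprinted genes and in 2.75% of all windows. Windows of 1 gene overlap in part, and 2 windows were each shared by a pair of genes, so that the windows are not independent.

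The 250 bases before the start are shown for 4 genes whose windows held the hexamer and whose RNA differed. The windows of SNURF (chr15:24954737-24954986, plus strand) and HYMAI (chr6:144008260-144008509, minus strand) lie at known imprinting control regions and belonged to detected genes. The windows of NDN (chr15:23687306-23687555, minus strand) and GRB10 (chr7:50793454-50793703, minus strand) belonged to genes with 1 count and with no count. The sequences run 5′ to 3′ on the strand of the gene, and capitals mark the hexamer on either strand.
SNURF: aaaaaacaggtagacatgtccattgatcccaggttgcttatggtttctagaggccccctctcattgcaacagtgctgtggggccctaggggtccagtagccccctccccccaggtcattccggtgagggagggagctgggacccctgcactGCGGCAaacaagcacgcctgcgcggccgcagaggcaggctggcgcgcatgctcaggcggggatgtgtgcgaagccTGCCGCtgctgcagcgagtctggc
HYMAI: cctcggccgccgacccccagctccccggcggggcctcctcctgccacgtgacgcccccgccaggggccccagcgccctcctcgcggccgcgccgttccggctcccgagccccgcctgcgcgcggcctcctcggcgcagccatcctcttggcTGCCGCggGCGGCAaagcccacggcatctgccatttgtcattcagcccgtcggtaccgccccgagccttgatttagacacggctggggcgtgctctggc
NDN: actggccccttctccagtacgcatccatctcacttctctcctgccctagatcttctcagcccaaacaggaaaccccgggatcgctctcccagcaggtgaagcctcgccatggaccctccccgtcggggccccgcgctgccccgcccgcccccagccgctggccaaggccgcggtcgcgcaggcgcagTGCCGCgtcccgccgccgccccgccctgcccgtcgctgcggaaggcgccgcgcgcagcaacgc
GRB10: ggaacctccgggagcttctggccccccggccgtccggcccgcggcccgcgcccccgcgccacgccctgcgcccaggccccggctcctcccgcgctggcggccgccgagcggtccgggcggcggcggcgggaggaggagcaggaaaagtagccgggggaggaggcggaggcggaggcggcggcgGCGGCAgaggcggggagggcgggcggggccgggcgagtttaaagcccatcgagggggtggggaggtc
The SNURF and HYMAI stretches each held the hexamer once on each strand, and the other stretches held it once. These 4 stretches had 12, 32, 30 and 37 CG pairs. Of the 15 genes with the hexamer in any window 9 were detected, and of the 12 without it 6 were detected. A match is a description of the letters and not a site of binding.

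In 15q11, the region lost in Prader-Willi and Angelman syndromes, 5 of the 8 imprinted genes were detected. Its sum had the smallest SD of the 7 groups, 810 and 808 CPM (809 ± 0.843, SD, n = 2). Within it, SNHG14 was higher in replicate 2 (SD 7.83 CPM) and UBE3A in replicate 1 (SD 7.15), shifts that offset each other. The SD of the sum is therefore no measure of stability. SNRPN (chromosome 15, 24823637 to 24978723, plus strand), which encodes a protein of the splicing machinery, had 134 and 115 counts, or 32.2 and 33.6 CPM. SNURF, which encodes a small protein from the same transcription unit, had 39 and 33 counts, or 9.39 and 9.63 CPM. Per kb of exon, SNRPN stood at 9.66 ± 0.275 CPM and SNURF at 6.10 ± 0.113 (SD, n = 2), a ratio of 1.58. SNURF shares 52.1% of its exon bases with SNRPN on the same strand, and read pairs in shared exons are in no gene's count. Over the exon bases that no other gene of the strand shares, the values were closer, 14.55 CPM per kb for SNRPN and 12.7 for SNURF.

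SNHG14 (chromosome 15, 24978583 to 25420336, plus strand) is the long host transcript of the snoRNA clusters that continues from SNURF and SNRPN. It had 1474 and 1253 counts, or 355 and 366 CPM (360 ± 7.83, SD, n = 2). Its level per kb of exon, 2.94 ± 0.0638 CPM, was lower than that of SNRPN, but it rests on an exon length of 122609 bases in GENCODE. PWAR5, ENSG00000261069 and PWAR1 lie wholly within exons of SNHG14 in that version and still had counts, so that the gene models used for counting differed from it. The exon length that was counted is not known here, and the level per kb of SNHG14 is uncertain for that reason.

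Those smaller genes lie along the span of SNHG14, the last pair of them being chosen after their values were seen. Whether their counts are parts of the SNHG14 transcript or RNAs of their own was not tested. PWAR5, 0.0301 Mb from the SNURF start, had 402 and 321 counts and 29.9 ± 0.674 CPM per kb (SD, n = 2). ENSG00000261069, at 0.133 Mb, had 319 and 209 counts and 55.7 ± 9.01 CPM per kb. PWAR1, at 0.181 Mb, had 20 and 20 counts and 2.21 ± 0.300 CPM per kb. SNURF at the start of the axis stood at 6.10, or at 12.7 over exon bases that no other gene of the strand shares. SNHG14 as a whole stood at 2.94. The level did not follow the distance, with ENSG00000261069 the highest and PWAR1 the lowest of the 5. Replicates of the 3 smaller genes did not overlap.

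UBE3A (chromosome 15, 25333728 to 25439051, minus strand), the ubiquitin ligase lost in Angelman syndrome, lies at the far end on the opposite strand. In neurons SNHG14 reaches across UBE3A and its paternal copy is silent, whereas most other cells use both copies. UBE3A had 1465 and 1173 counts, or 353 and 342 CPM, and its 18.3 ± 0.376 CPM per kb of exon (SD, n = 2) was the highest level per kb of the 40 genes. On the SNHG14 strand, the exons of UBE3A, from 0.379 to 0.484 Mb, had 0 counts in both replicates. Against the 2638 counts on the UBE3A strand, a count of 0 allows an antisense share of up to 0.114%. Its bound of 0.0208 CPM per kb put PWAR1 at least 106-fold higher. By the GENCODE exon length, SNHG14 as a whole stood 141-fold above that bound, a value as uncertain as the length. Transcription of SNHG14 over the exons of UBE3A was thus not detectable at this depth, although GENCODE lets their spans overlap by 86609 bases.

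The other genes of 15q11 lie upstream of SNURF. MKRN3 (chromosome 15, 23565674 to 23630075, plus strand), a makorin that restrains the onset of puberty, had 251 and 195 counts, or 60.4 and 56.9 CPM, and 8.24 ± 0.345 CPM per kb of exon (SD, n = 2). NDN, which encodes the growth suppressor necdin, had 1 and 0 counts. MAGEL2, which encodes a partner of ubiquitin ligases, had 0 counts in both replicates, as had NPAP1. MKRN3 was at least 89.9-fold higher per kb than MAGEL2, whose end lies 13474 bases from its own in GENCODE, and at least 159-fold higher than NPAP1. Genes on both sides of the imprinted genes were detected, with HERC2 (1208 and 942 counts) beyond UBE3A and CYFIP1, NIPA1, NIPA2 and TUBGCP5 on the other side. ATP10A, the nearer listed neighbour beyond UBE3A, had 2 and 1 counts.

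**Figure D2:**
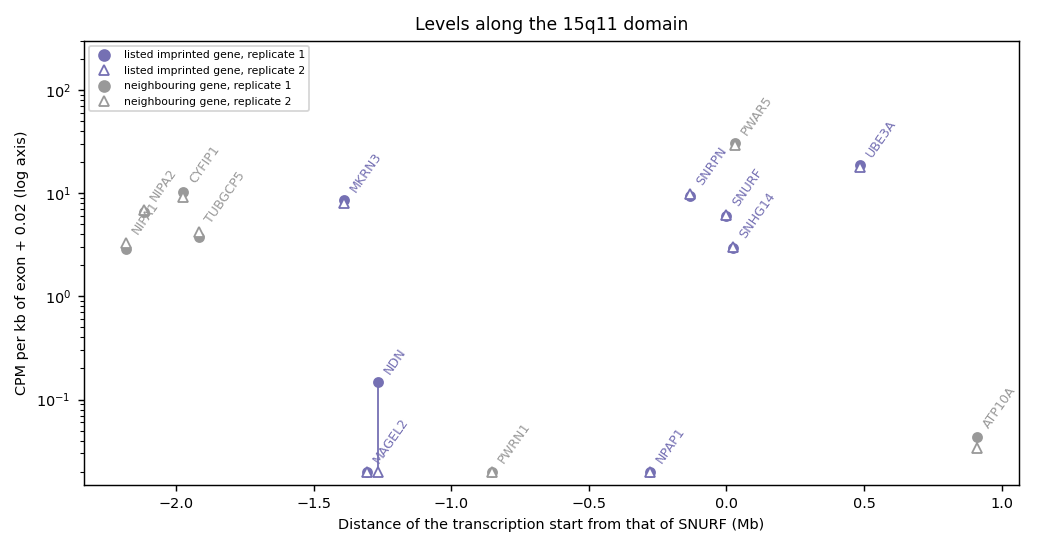
Level of genes in 15q11, in CPM per kb of exon + 0.02 on a log axis, by distance of their transcription start from that of SNURF in Mb up to 1 Mb beyond it, with imprinted genes of the list in colour, neighbouring genes in grey, replicate 1 filled and replicate 2 open. MKRN3 at 8.24 and SNRPN at 9.66 CPM per kb flank MAGEL2, NDN, PWRN1 and NPAP1, which had 0 or 1 count.

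In 11p15, the domain of Beckwith-Wiedemann syndrome, 3 of 6 imprinted genes were detected. KCNQ1OT1 (ENSG00000269821, chromosome 11, 2597308 to 2700003, minus strand), the paternal transcript that lies within KCNQ1 and silences its neighbours, had 5243 and 4875 counts. These were 1262 and 1423 CPM (1343 ± 114, SD, n = 2), the highest level of the 40 genes before length is considered. Its exons in GENCODE cover 92625 bases, so that nearly its whole span is counted, while for spliced genes introns are left out. Per kb of exon it stood at 14.5 ± 1.23 CPM and ranked behind UBE3A, ZDBF2 and PLAGL1. KCNQ1, the potassium channel gene on the opposite strand that spans all of it, had 33 and 11 counts, and KCNQ1OT1 was 11.6-fold higher per kb, with 7.63 and 21.3 in the replicates.

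The listed maternal genes on the far side of KCNQ1OT1 from H19 had few counts. CDKN1C, which encodes the cell cycle inhibitor p57, had 3 and 1 counts. PHLDA2, a restrainer of placental growth, had 0 and 0, and SLC22A18, a membrane transporter, had 22 and 8 counts, or 5.29 and 2.34 CPM. TSSC4, on the other side of KCNQ1, had 382 and 215 counts and stood at least 67.6-fold above PHLDA2 per kb. NAP1L4 and OSBPL5 beyond PHLDA2 (188 and 153, and 91 and 62 counts) and CD81 (397 and 242) were also detected, so that genes near KCNQ1OT1 were not all low.

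In the part of 11p15 that holds H19 and IGF2, IGF2, the fetal growth factor of the paternal copy, had 0 counts on both strands in both replicates. H19, the maternal lncRNA of the same region, had 16 and 4 counts, or 3.85 and 1.17 CPM, and was higher in replicate 1 (3.30-fold, exact 95% interval 1.06 to 13.6). In replicate 2 alone, H19 and SLC22A18 were under the limit of detection. INS, TH, ASCL2, IGF2-AS and KCNQ1DN also had no count. The 11p15 genes thus held 42.5% and 45.8% of the CPM of all imprinted genes (44.1% on average), almost all of it from KCNQ1OT1.

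In 14q32 only DLK1 and MEG8 of 6 imprinted genes were detected, and the sum was 9.39 and 7.88 CPM (8.63 ± 1.06, SD, n = 2), the lowest of the 7 groups. DLK1, a paternal ligand-like protein that holds back differentiation, had 23 and 15 counts, or 5.54 and 4.38 CPM, and 0.945 ± 0.156 CPM per kb of exon. MEG8, a maternal lncRNA that hosts snoRNAs, had 12 and 10 counts, or 2.89 and 2.92 CPM, spread over 27506 exon bases, which gives 0.106 CPM per kb. MEG3, the maternal lncRNA at the head of the same chain, had 0 and 1 counts. MEG9 had none on its strand, DIO3, which inactivates thyroid hormone, had 1 and 0, and RTL1, a gene of retrotransposon origin, had 3 and 1. Genes next to the domain were measured well: BEGAIN had 494 and 253 counts at 0.192 Mb before MEG3, and WDR25 and WARS1 were detected too. At the other end DIO3OS, which runs against DIO3 and spans it, had 15 and 22 counts.

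In 20q all 5 imprinted genes were detected, with 350 and 315 CPM in sum (332 ± 24.5, SD, n = 2) and levels from 4.94 to 7.51 CPM per kb of exon. GNAS (chromosome 20, 58839718 to 58911192, plus strand), the stimulatory G protein subunit with several first exons of different imprinting, had 743 and 531 counts, or 179 and 155 CPM. GNAS-AS1, the paternal antisense RNA of its upstream first exons, had 99 and 91 counts, or 23.8 and 26.6 CPM. Per kb the pair was close, 7.51 ± 0.757 for GNAS and 6.89 ± 0.530 for GNAS-AS1 (SD, n = 2), with overlapping replicates. Which first exon of GNAS was used cannot be read from counts per gene.

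NNAT, a paternal gene of the developing brain that encodes neuronatin, sits inside BLCAP on the opposite strand. NNAT had 34 and 18 counts, or 8.18 and 5.26 CPM, and 5.06 ± 1.56 CPM per kb. BLCAP had 237 and 193 counts, or 57.0 and 56.3 CPM, and 7.20 ± 0.0621 CPM per kb. BLCAP was the higher of them in both replicates, by 1.18-fold and 1.81-fold per kb. L3MBTL1, a chromatin reader, had 340 and 246 counts, or 81.8 and 71.8 CPM, and 4.94 ± 0.455 CPM per kb.

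In 7q21 and 7q32, 4 of 5 imprinted genes were detected, with 160 and 151 CPM in sum. PEG10 and SGCE start head to head from a shared paternal promoter and overlap by 248 bases. PEG10, a retrotransposon-derived gene of the placenta, had 93 and 62 counts, or 22.4 and 18.1 CPM. SGCE, the sarcoglycan mutated in myoclonus-dystonia, had 395 and 258 counts, or 95.1 and 75.3 CPM. Per kb of exon SGCE stood at 4.08 ± 0.669 and PEG10 at 3.03 ± 0.453 (SD, n = 2), with 1.36-fold and 1.33-fold in the replicates. CASD1, the neighbour whose end overlaps SGCE, had 1084 and 957 counts and was 12.6-fold higher per kb than SGCE.

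MEST, a paternal gene of the hydrolase fold, and COPG2, a coat protein subunit of transport vesicles, meet tail to tail in 7q32 with an overlap of 228 bases. MEST had 19 and 18 counts, or 4.57 and 5.26 CPM. COPG2 had 157 and 180 counts, or 37.8 and 52.6 CPM, and was 10.6-fold higher per kb, with 9.52 and 11.5 in the replicates. KLF14, a maternal transcription factor gene near COPG2, had no count. In 19q13, PEG3, the large paternal zinc finger gene, had 142 and 166 counts, or 34.2 and 48.5 CPM. ZIM2, which starts at the same place and shares 41.2% of its exon bases with PEG3, had 3 and 3 counts.

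Of the 8 genes elsewhere, ZDBF2 and PLAGL1 were among the highest of the list per kb and GRB10 among those with no count. ZDBF2 (chromosome 2, 206274663 to 206314427, plus strand), a paternal zinc finger gene, had 849 and 651 counts, or 204 and 190 CPM, and 18.1 ± 0.925 CPM per kb of exon (SD, n = 2). PLAGL1 (chromosome 6, 143940300 to 144064599, minus strand), the zinc finger gene of transient neonatal diabetes, had 369 and 353 counts, or 88.8 and 103 CPM, and 14.97 ± 1.57 CPM per kb. HYMAI, a paternal lncRNA that shares its promoter, had 21 and 29 counts, or 5.05 and 8.47 CPM, and 2.02 ± 0.721 CPM per kb. PLAGL1 was 7.41-fold higher per kb than HYMAI, with 9.17 and 6.36 in the replicates, and the promoter window that they share is the one printed above.

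GRB10 (chromosome 7, 50590063 to 50793462, minus strand), an adaptor that dampens insulin signalling, had no count on either strand in either replicate, which bounds it at 0.0404 CPM per kb. DDC, which makes dopamine from its precursor and starts 0.228 Mb away, had 383 and 247 counts and stood at least 659-fold higher per kb. INPP5F, a phosphoinositide phosphatase with a paternal brain isoform, had 228 and 192 counts, or 54.9 and 56.1 CPM, and 7.42 ± 0.112 CPM per kb. NAP1L5, which lies in an intron of HERC3, had 6 and 5 counts, and DIRAS3, a growth-suppressing Ras relative, had 2 and 3. AIRN had no count on its own strand, while IGF2R, which spans it on the opposite strand, had 1116 and 955 counts and stood at least 134-fold higher per kb.

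The order of the levels can be read only per kb of exon. UBE3A (18.3) and ZDBF2 (18.1) led with overlapping replicates, followed by PLAGL1 (14.97) and KCNQ1OT1 (14.5), which overlapped each other and not the pair above. COPG2 (10.9) and SNRPN (9.66) came next and overlapped. Over exon bases shared with no other gene of the strand, SNRPN (14.55) instead lay between PLAGL1 (15.7) and KCNQ1OT1 (14.49), and SNURF (12.7) lay between KCNQ1OT1 and COPG2 (11.2). MKRN3, GNAS and INPP5F formed a further run of overlapping neighbours, as did BLCAP with GNAS-AS1, and SNURF with NNAT, L3MBTL1, PEG3 and SGCE. Only neighbours in the order were compared, so that these runs are not separate levels. GNAS overlapped GNAS-AS1 of another run, and SNURF did not overlap SGCE of its own run. The 24 detected genes had a median of 5.58 CPM per kb, against 6.50 for the 11637 detected protein-coding genes. Of the 24, 11 lay above that median and 0 reached the top 10% of protein-coding genes, which began at 25.1. UBE3A came nearest, at percentile 83.3. These values divide by GENCODE lengths, and only 3 of the 40 genes (COPG2, HYMAI and AIRN) had the same model version in the files.

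**Figure D3:**
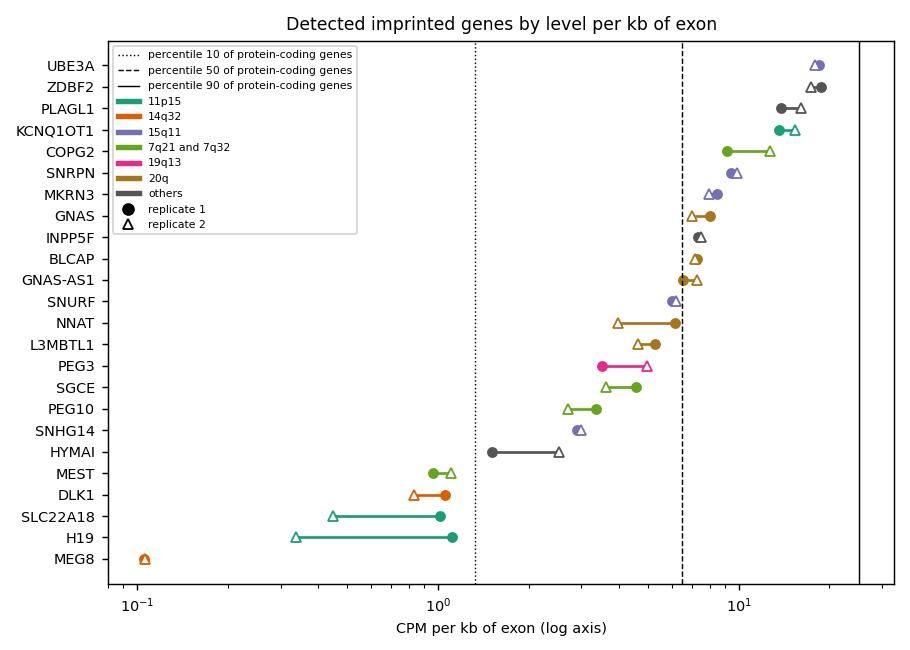
Level per kb of exon, in CPM on a log axis, of the 24 detected imprinted genes from highest to lowest, with replicate 1 filled and replicate 2 open, and vertical lines at percentiles 10, 50 and 90 of detected protein-coding genes (1.33, 6.50 and 25.1). UBE3A and ZDBF2 head the order below the line at 25.1, and MEG8 ends it at 0.106.

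The genes were also sorted by the copy that is known to be expressed. Of 25 paternal genes 16 (64%) were detected and 3 had no count. The share is near the 59.4% of all protein-coding genes. KCNQ1OT1, SNHG14, HYMAI, GNAS-AS1 and AIRN among them are lncRNA genes, of which 12.2% were detected in all. Their median level was 8.18 CPM in replicate 1, at NNAT, and 8.47 in replicate 2, at HYMAI, so that the medians are those of different genes, and the median of their mean levels was 6.76 CPM. Of 8 maternal genes only H19, SLC22A18 and MEG8 (37.5%) were detected and 3 had no count, and in replicate 2 alone only MEG8 was detected. H19, MEG3, MEG8 and MEG9 are lncRNA genes and the other maternal genes are protein-coding. Their share lies between the 12.2% of all lncRNA genes and the 59.4% of all protein-coding genes. The maternal genes summed to 12.8 and 7.01 CPM, and the highest of them per kb, SLC22A18 (0.729) and H19 (0.725), had overlapping replicates. The 7 genes whose imprint depends on tissue or isoform or is disputed were UBE3A, NPAP1, COPG2, GRB10, GNAS, BLCAP and INPP5F, and 5 of them were detected. The list holds few maternal genes, 7 of the 8 lie in 11p15 and 14q32, and no test was made.

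The directional libraries also gave the RNA of the opposite strand at each gene. Its share is given over the counts of both strands, for the 26 imprinted genes with a mean of at least 10 counts on both strands together. In 16 of them it was under 1%, a count for which the share over all genes was not computed. It was above 50%, meaning more antisense than sense counts, in 4 of 26 (15.4%), namely AIRN, ZIM2, NNAT and MEST, whereas 25.5% of all such genes in the files had more antisense than sense counts. In replicate 2 alone ZIM2 had too few counts to enter, which left 3.

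At AIRN all 26 counts were antisense (16 and 10; exact 95% interval of the share 86.8 to 100%), and AIRN lies wholly inside the span of IGF2R, which is transcribed from that strand. At NNAT 57 and 47 counts were antisense (66.7%, 58.7 to 74.0), and the BLCAP transcript runs through NNAT on that strand. At MEST 35 and 34 were antisense (65.1%, 55.2 to 74.1), where COPG2 ends and where MESTIT1 and ENSG00000270823 overlap exons of MEST with 3 and 3 and 13 and 9 counts of their own. At ZIM2 9 and 5 of the 20 counts were antisense (70%, 45.7 to 88.1), an interval that includes equal strands. ZIM2-AS1 overlaps 25056 bases of the ZIM2 span on the opposite strand and had 7 and 10 counts of its own. For these 4 genes the sense count was at most 52 over both libraries.

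Longer runs of antisense counts were found at well-measured genes. INPP5F had 113 and 76 antisense counts (31.0%, 27.4 to 34.9), and MCMBP, with 509 and 388 counts, ends on the opposite strand 257 bases beyond its end. SNHG14 had 358 and 290 (19.2%, 17.9 to 20.6), where UBE3A overlaps it. GNAS had 63 and 45 (7.81%), with GNAS-AS1 opposite 1127 bases of its exons, and BLCAP had 22 and 13 (7.53%), with NNAT inside it. KCNQ1OT1 had 338 and 283 (5.78%, 5.35 to 6.24) over 92625 exon bases, all of them inside the span of KCNQ1 on the opposite strand. KCNQ1 had 33 and 11 counts over 4450 exon bases, of which it shares 121 with KCNQ1OT1. The counts of this pair thus cover unlike lengths. The part of the opposite genes in these counts was not tested. At the other end, ZDBF2 had 0 of 1500 counts on the opposite strand, which allows a share of up to 0.200%, and L3MBTL1 had 0 of 586, which allows up to 0.512%.

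**Figure D4:**
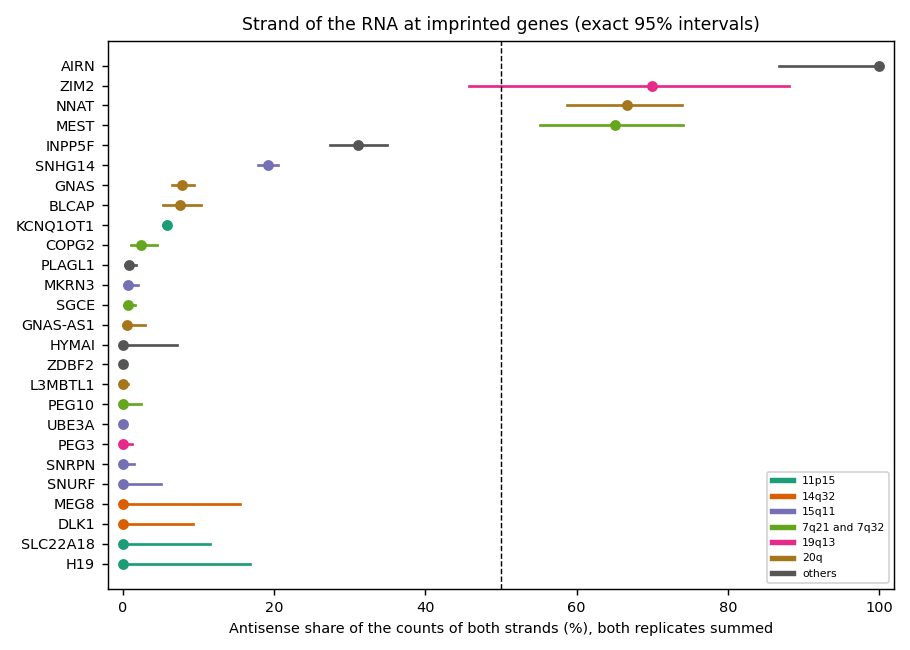
Share of antisense counts among the counts of both strands, in percent with both replicates summed, for the 26 imprinted genes with enough counts, with bars for exact 95% intervals and a dashed line at equal strands. AIRN, NNAT and MEST lie right of the line with their whole interval.

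For 17 of the 24 detected genes the replicates did not differ beyond counting error. The interval of the ratio of replicate 1 over replicate 2 left out equality for 7 of the 24 detected imprinted genes (29.2%), against 18% of all 14978 detected genes, a difference that rests on few genes and was not tested. H19, SGCE (1.26-fold, exact 95% interval 1.08 to 1.48) and GNAS (1.15-fold, 1.03 to 1.29) were higher in replicate 1. PEG3 (0.705, 0.560 to 0.888), COPG2 (0.719, 0.577 to 0.896), KCNQ1OT1 (0.887, 0.852 to 0.922) and PLAGL1 (0.862, 0.743 to 1.00, with the upper end just under equality) were higher in replicate 2. The best-counted genes of 15q11, SNHG14 (0.970, 0.899 to 1.05) and UBE3A (1.03, 0.953 to 1.11), did not differ beyond counting error. With 2 libraries of 1 condition, a difference of a gene between them belongs to the libraries.

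**Figure D5:**
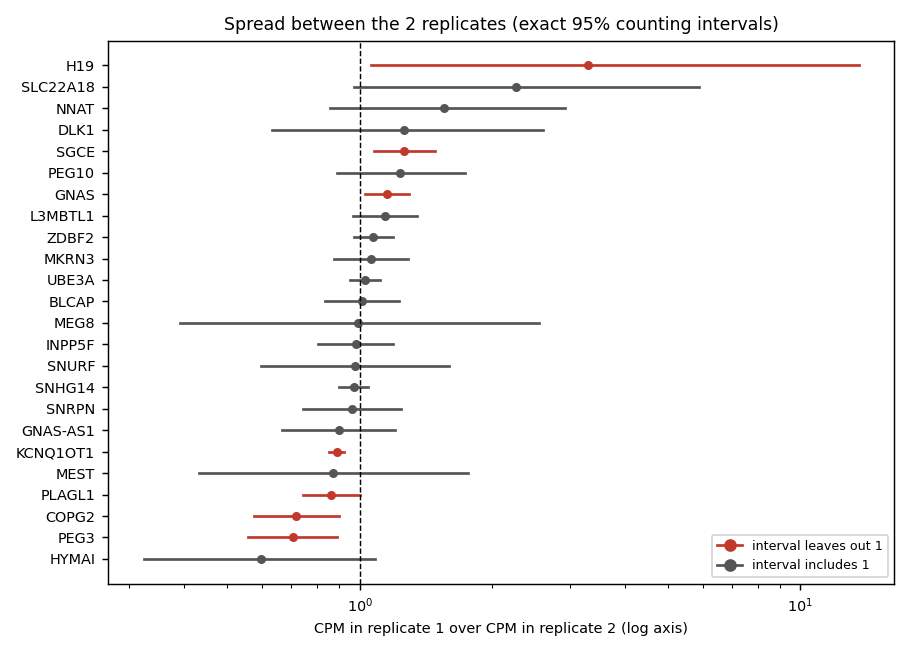
Ratio of CPM in replicate 1 over replicate 2 on a log axis for the 24 detected imprinted genes, with exact 95% counting intervals. The 7 intervals in red leave out 1, from H19 at 3.30 to PEG3 at 0.705, and the widest intervals belong to genes with the fewest counts.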

How the data were processed

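The 2 libraries of chromatin RNA, replicates of 1 condition in SH-SY5Y cells, were made by directional, paired-end sequencing with unique molecular identifiers (UMIs). The authors extracted UMIs with UMI-tools, trimmed reads, removed spike-in and rRNA reads with Bowtie, mapped with STAR to hg38, removed duplicates and mapped again. The sources used here do not state versions, STAR options or the gene annotation. The deposited values are raw counts of read pairs per gene in an unstranded column and 1 column for each strand. The sense column was the one with the larger total (4155210 against 540916 antisense counts, and 3425309 against 436277). Pairs in exons of several genes of a strand, pairs without a gene and multimapped pairs were left out, as were the summary lines that name no gene.

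CPM, CPM per kb of exon (GENCODE version 44, GRCh38, in which 56558 of 60554 genes were found) and exact intervals were computed in Python 3.11.15 with pandas 2.3.3 and scipy 1.17.1, figures with matplotlib 3.10.9. With 1 condition no test was made. Alternatives were other strand columns, each replicate alone, TMM scaling (edgeR 4.0.16 in R 4.3.3), other count limits and other exon lengths. Promoter windows are those of RefSeq, GRCh38.p14.

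The genes and lists were chosen with earlier results of these data known. All 40 listed imprinted genes are named. Of the lists of imprinting machinery and of other imprinted or neighbouring genes, the 4 highest per kb are named. Most of those that overlap an imprinted gene and those needed as a neighbour are named too. Other genes named were added after their values were seen. Some genes of these lists are not reported here.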

Additional observations from a re-analysis of the deposited data

How the results depend on the processing

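The summed level of the 40 imprinted genes (3054 CPM) was 3064 CPM in the unstranded column, and leaving out each replicate gave 2990 to 3119 CPM. It was 1893 CPM in the opposite strand column, which counts other RNA, and 1712 CPM without KCNQ1OT1, an alternative chosen after seeing the data. The share of 11p15 (44.1%) was 42.5 to 45.8% without a replicate and 33.6% on the opposite strand. The median of the paternal genes (8.32 CPM as the average over the replicates) was 8.18 to 8.47 without a replicate, 10.1 in the unstranded column (the cause was not tested) and 0 on the opposite strand. The number of detected genes (24) was 22 to 24 without a replicate, 8 on the opposite strand and 14 at a mean count of at least 100, where fewer genes can pass. The number with more antisense than sense counts (4) was 3 to 4 without a replicate and 0 at a summed mean of at least 100. The number in the top 10% per kb (0) was 0 without either replicate, 1 on the opposite strand and 4 without division by length. The 7 genes that differed between replicates stayed 7 in number under each of the 3 alternatives run. Of the 40 single levels, 17 moved by more than 1 SD in the unstranded column, 33 on the opposite strand and 0 with TMM scaling. That SD rests on 2 values and is very small for some genes. In the unstranded column BLCAP moved from 56.7 to 56.2 CPM (SD 0.489), whereas H19, from 2.51 to 1.72 (SD 1.90), did not count as moved. The number of moved genes is thus no measure of how many depend on the strand column. Over exon bases shared with no other gene of the strand, 6 of 40 levels per kb moved. No paired analysis was possible because there was no second group to pair the replicates with. The depth limits genes under 10 counts, for which neither an order nor a strand can be read.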

Other observations

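Factors that set or keep imprints were read from a list of 27 genes, of which 17 were detected and 10 had no count. All 27 were protein-coding, and the detected share is near the 59.4% of all protein-coding genes. It is thus no result about these factors. ATRX, a chromatin remodeller, led with 4598 and 4468 counts and 53.0 ± 6.15 CPM per kb of exon (SD, n = 2). TRIM28, the co-repressor that zinc finger proteins recruit to imprinted control regions, had 706 and 483 counts and 36.1 ± 4.75 CPM per kb. DNMT3A, a methyltransferase that sets imprints in the germ line, stood at 25.9 ± 1.78, and SETDB1, the histone methyltransferase of the TRIM28 complex, at 25.5 ± 0.143. ZFP57, whose motif was searched in the promoter windows, had no count in either library, whereas ZNF445, the other zinc finger protein known to keep imprints, had 470 and 353 counts. The 10 genes without a count were ZFP57, DNMT3L, CTCFL, DPPA3, NLRP2, NLRP5, NLRP7, PADI6, KHDC3L and OOEP, most of which are known from germ cells and the early embryo.

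Of 80 other imprinted or neighbouring genes on a list, 76 were found in the files, 42 were detected and 20 had no count. Among all genes in the files 24.7% were detected, and among all protein-coding genes 59.4%. Most of the 76 are protein-coding and their detected share is near the latter, so that it is no result about these genes. The highest per kb of exon were CASD1 (51.4), PWAR5 (29.9), TSSC4 (29.1) and DDC (26.6).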
